A study of Mus musculus with 18 samples.

Results

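The cytosolic ribosomal protein genes were taken as every gene whose symbol is Rpl or Rps followed by a number, with the usual letter or paralog endings, together with Rplp0 to Rplp2 and Rpsa. Symbols ending in -ps, which mark pseudogenes, were left out. Of 55401 gene rows, 89 matched, and 82 of these reached at least 10 TPM (a length-corrected share of a library's transcripts that sums to the same total in every library) in at least 3 libraries. These 82 members comprised 48 genes of the large subunit and 34 of the small subunit. Annotation listed 80 as protein coding and 2, Rps4l and Rps3a2, as pseudogenes.

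The libraries came from colon, lung and liver of C57BL/6N mice at 7 weeks of age. RECTAS, a small molecule named as a rectifier of aberrant splicing, was given by mouth at 100 mg/kg in 0.5% carboxymethyl cellulose (CMC), and the vehicle groups got 0.5% CMC alone. Doses were 4 h apart and tissue was taken 8 h after the first of them. Each of the 6 groups (colon vehicle, colon RECTAS, lung vehicle, lung RECTAS, liver vehicle, liver RECTAS) held 3 libraries of polyadenylated RNA, 18 in all. Whether separate animals gave the libraries of a group is not stated in the labels, so p-values measure only the spread between these samples, which may be technical. Nor is it stated whether the same animals gave all 3 tissues, and tests across tissues took the libraries as independent.

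Each cytosolic ribosome joins a large subunit, where peptide bonds are formed, to a small subunit, where the messenger RNA is decoded. Nearly every ribosomal protein is present once per ribosome and its gene is used in all tissues, but a few genes have paralogs with a restricted or variable use. In mammals, ribosomal protein mRNAs typically begin with a run of pyrimidines (C or T in DNA), the 5′ terminal oligopyrimidine or TOP motif, through which the kinase complex mTORC1 controls their translation more than their amount.

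RefSeq start sites (GRCm38.p6) were available for 60 of the 82 members, with 1 start, the first listed, used per gene. A run of at least 7 pyrimidines on the gene's strand, within 10 bases before to 20 after the start, was found in 28 of the 60 (46.7%), against 17.9% of 27025 promoters of all genes. Of 3 further motifs searched on both strands of the 300-base promoters, CCGGAA was held by 51.7% of members and 15.2% of all promoters. The motif CTTTCC, which can overlap a pyrimidine run, was held by 46.7% and 26.3%, and TATATAA by 6.67% and 3.46%. A match is a description of these letters, not evidence of a bound factor or of the start used in these tissues.

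The 50 bases around the start (25 on each side) are shown for 8 members on which the results below turn: 3 that are abundant or vary between tissues, a paralog pair, and 3 others whose share of the members' summed TPM is high in liver. Capitals mark the longest run of pyrimidines found in the searched bases, followed to its ends where it passes their edge, 5′ to 3′ on the gene's strand. Regions are chr14:24490653-24490702 (Rps24, plus strand), chr7:45128721-45128770 (Rpl13a, minus), chr10:128626482-128626531 (Rps26, minus), chr3:90213624-90213673 (Rps27, minus), chr9:66946061-66946110 (Rps27l, plus), chrX:74270791-74270840 (Rpl10, plus), chr17:24720038-24720087 (Rps2, plus) and chr17:46782632-46782681 (Rpl7l1, minus).
Rps24: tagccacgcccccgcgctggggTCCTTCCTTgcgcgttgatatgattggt
Rpl13a: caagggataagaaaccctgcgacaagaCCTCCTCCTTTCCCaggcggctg
Rps26: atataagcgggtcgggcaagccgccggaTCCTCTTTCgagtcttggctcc
Rps27: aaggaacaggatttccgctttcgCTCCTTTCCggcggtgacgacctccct
Rps27l: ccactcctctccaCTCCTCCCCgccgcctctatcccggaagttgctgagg
Rpl10: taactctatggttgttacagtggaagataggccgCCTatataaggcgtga
Rps2: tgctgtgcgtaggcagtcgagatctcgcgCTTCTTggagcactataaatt
Rpl7l1: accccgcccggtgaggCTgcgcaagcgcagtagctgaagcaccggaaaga
Rpl13a holds the longest of these 8 runs, at 14 bases, and Rps24, Rps26, Rps27 and Rps27l hold runs of 9. The run of Rps27l begins 12 bases before the listed start, with 7 of its bases among those searched, while its parent's run begins 2 bases before. The runs of Rps2, Rpl10 and Rpl7l1 are 6, 3 and 2 bases long.

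Every library carried the defining epithelial or hepatocyte markers of its labelled tissue. The mitochondrial share of TPM was 8.09% to 9.60% in lung, 13.1% to 14.5% in liver and 14.6% to 18.2% in colon. TPM keeps no read depth, so counting error is unknown here. Colon vehicle library 1 stood apart: its 6 smooth muscle markers summed to 5396 TPM against 1906 to 2022 in the other vehicle libraries and 1717 to 3236 under RECTAS. Its 6 colon epithelium markers summed to 17239 TPM against 24423 and 31612, and 18663 to 32927 under RECTAS. In that library 80 of the 82 members lay above their group mean. Members moved together in other libraries too, so this is not particular to it. In colon vehicle library 2, 76 lay below their group mean, and 74 did in lung vehicle library 2. In RECTAS library 3 of lung and of liver, 72 lay above, while lung vehicle library 3 was split, with 39 above and 43 below. Those RECTAS libraries held the most proliferating cell marker RNA of their groups, 49.7 TPM in lung and 20.5 in liver. The next highest held 27.6 and 5.91 TPM. Liver vehicle library 1 also held the most of its group (6.71 TPM), but 68 members lay below its mean. In colon RECTAS library 3, 69 lay below. Its B cell markers summed to 20.5 TPM, against at most 2.37 in other colon libraries. The part of these cells in the members' levels was not tested. In lung, the 6 hepatocyte markers summed to 18.4, 484 and 1346 TPM with vehicle and 1.37, 54.5 and 553 TPM with RECTAS. Counts of called members that changed without colon vehicle library 1 or lung vehicle library 3 are given beside the result.

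The 82 members made up 8.03, 6.87 and 7.34% of all TPM in the colon vehicle libraries, 7.29, 6.83 and 6.97% in lung and 3.03, 3.23 and 3.20% in liver. All 3 liver libraries lay below every colon and lung library, and colon and lung overlapped. With RECTAS the sums were 7.70, 7.62 and 7.19% in colon, 6.70, 6.59 and 7.25% in lung and 3.02, 3.07 and 3.30% in liver. Within each tissue the vehicle and RECTAS sums overlapped. In bulk tissue, fewer cells of a type and less of an RNA per cell cannot be told apart.

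**Figure D1:**
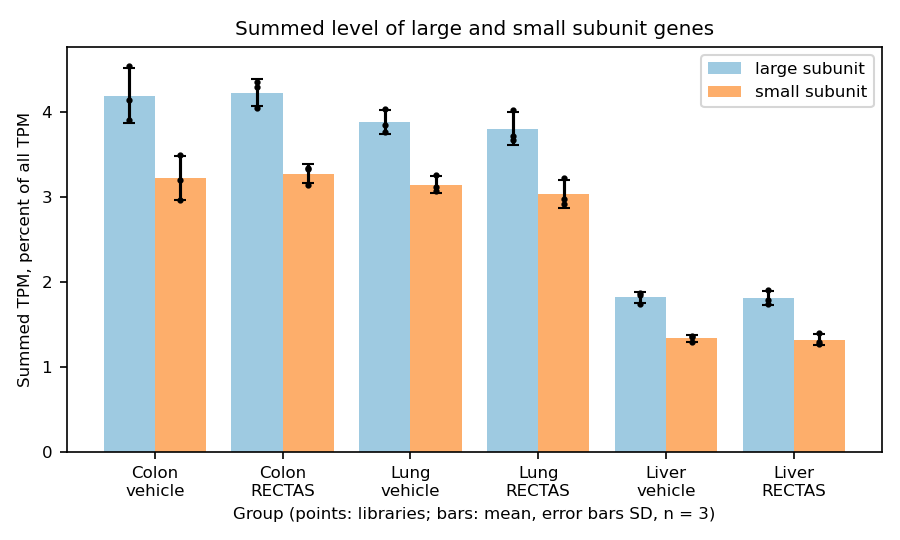
Summed TPM of the 48 large and 34 small subunit genes as a percent of all TPM (y axis) in the 6 groups, with bars for means, error bars of 1 SD (n = 3) and a point per library. Liver bars are lowest, vehicle and RECTAS bars of a tissue are alike, and the large subunit sum is 1.23 to 1.39 times the small subunit sum.

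The balance of the subunits was ordered by tissue. The summed TPM of large subunit genes over that of small subunit genes was 1.23 to 1.26 in the 6 lung libraries, 1.29 to 1.31 in colon and 1.35 to 1.39 in liver. No library of one tissue reached the range of another, and since this is a ratio within a library it does not depend on scaling. In lung the ratio was 1.24, 1.23 and 1.24 with vehicle and 1.25, 1.26 and 1.25 with RECTAS. In liver it was 1.35, 1.36 and 1.36 with vehicle and 1.37, 1.39 and 1.37 with RECTAS. In these 2 tissues each RECTAS ratio exceeded each vehicle ratio, although by little. In colon, 1.30, 1.31 and 1.29 with vehicle overlapped 1.30, 1.29 and 1.29 with RECTAS. An exact test of 3 libraries against 3 cannot give a p below 0.1, and no other test of this shift was run.

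The highest members differed in order between tissues. In colon vehicle libraries they included Rplp1 (2140.4 ± 169 TPM, SD, n = 3), Rpl41 (2072 ± 99.1), Rps24 (1885 ± 175) and Rps29 (1877 ± 172). Rplp1 encodes an acidic protein of the stalk that recruits translation factors, and Rpl41 the smallest of the ribosomal proteins. Neighbours in this order differed by less than 2 SD. In lung they were Rps27 (2201 ± 74.3 TPM), Rpl13a (1950.0 ± 105), Rps24 (1939 ± 38.2), Rplp1 (1858 ± 42.9) and Rpl41 (1718 ± 169.6). Rps27 exceeded Rpl13a in each of the 3 lung vehicle libraries. In liver they included Rplp1 (1003 ± 38.5 TPM), Rpl10 (987 ± 59.2), Rpl13a (814 ± 30.8) and Rps2 (808 ± 20.7). Rplp1 and Rpl10 did not differ beyond their spread there. Across members, the Spearman correlation of vehicle means was 0.913 between liver and colon, 0.886 between lung and colon and 0.819 between lung and liver. These correlations describe 82 genes measured in the same libraries, which are not independent points.

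**Figure D2:**
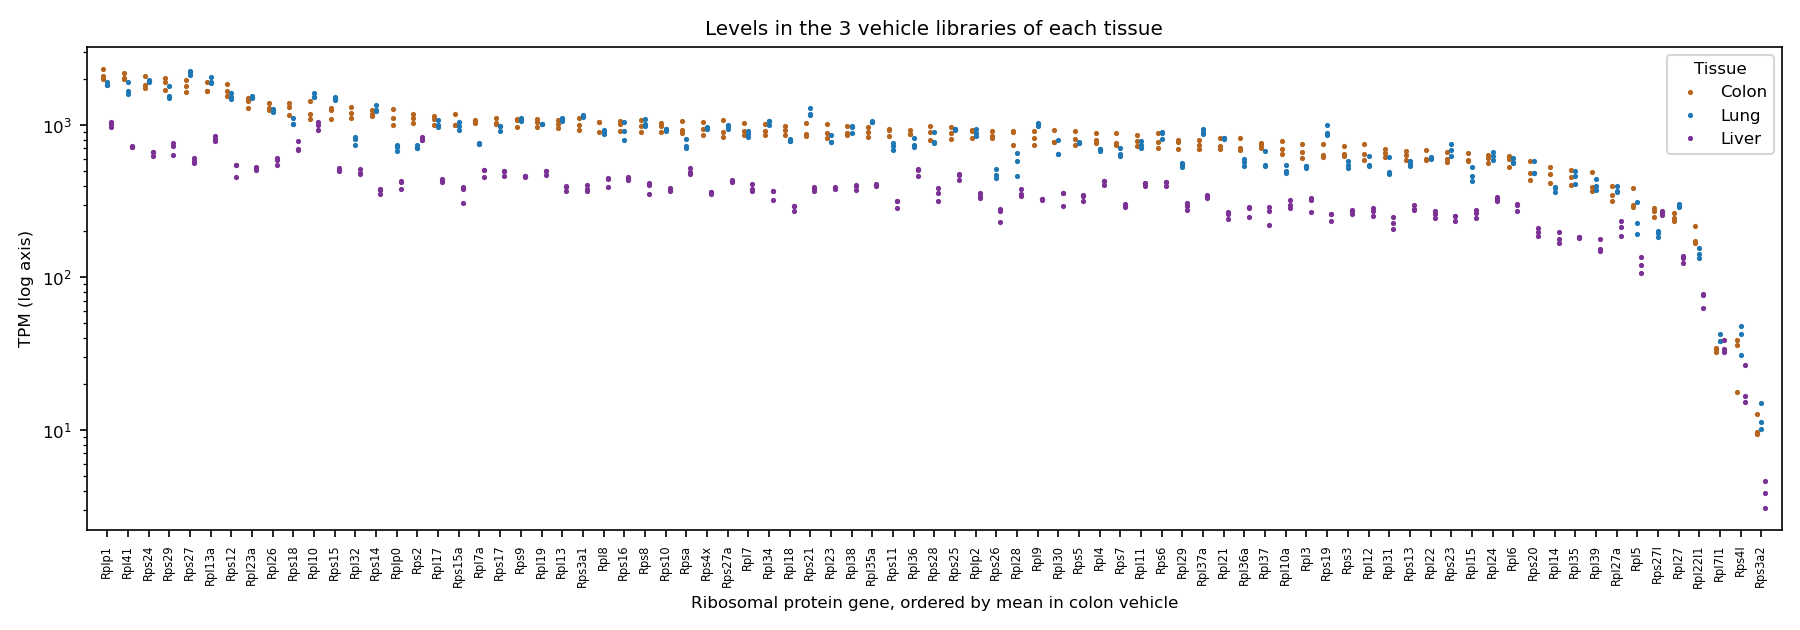
TPM of 81 of the 82 members (log axis) with a point for each of the 3 vehicle libraries of colon, lung and liver, ordered by the mean in colon. Most members lie lower in liver than in colon and lung, and Rps27l, Rps2 and Rpl7l1 are exceptions whose liver level lies close to or above the lung level.

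At the low end, Rps3a2 passed the threshold of 10 TPM in 3 libraries with 12.7 TPM in the third highest, followed by Rpl7l1 at 43.5 and Rps4l at 45.8. The nearest genes below it were Rpl6l at 2.71, Rps3a3 at 1.13 and Rpl3l at 0.450 TPM, and the other 4 left out were Rpl32l, Rpl39l, Rpl10l and Rps12l1. The symbol rule also leaves out genes for ribosomal proteins with other names or endings. Among these, Fau encodes a ribosomal protein fused to a ubiquitin-like domain, Rack1 encodes a scaffold on the small subunit, and Rpl36al is a paralog of Rpl36a. Rows for 319 pseudogenes named after ribosomal protein genes summed to 2.67% to 4.13% of the members' TPM. How reads shared between a member and its pseudogenes or near-identical paralog were divided is not visible in TPM, so these values are uncertain for such genes.

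Liver against colon was tested across all genes with limma on log2(TPM + 1) in the 9 vehicle libraries, with Benjamini-Hochberg adjustment at 0.05. All 82 members passed the low-value filter in this and every other comparison. In liver 79 of the 82 members were lower than in colon and 0 were higher, and the members' median difference was log2 -1.27 (2.42-fold lower). Of all 16715 genes tested 63.8% were lower and 16.1% higher, with a median of -0.68. The direction depends in part on scaling: after median ratio scaling, which moves the median of all genes from -0.68 to close to 0, 59 members were lower, 5 were higher and the members' median was -0.32. Without colon vehicle library 1, 80 were lower.

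The members furthest down in liver encode small subunit proteins and Rpl18. Rps26, which lies by the mRNA exit channel, had 908, 818 and 845 TPM in colon and 231, 271 and 280.1 in liver vehicle libraries. The groups were far apart (log2 difference -1.72, SE 0.090, limma adjusted p = 1.39e-07). Rps12, 1689 against 516 TPM on average, Rps14, 1194 against 369, Rpl18, 923 against 287, and Rps27, 1805 against 582, followed, with log2 differences of -1.71 to -1.63. At the other end, Rpl10, a large subunit protein added late in assembly, was lower by less, with 1436, 1088 and 1175 TPM in colon and 922, 1037 and 1002 in liver (log2 difference -0.31, limma adjusted p = 0.0183). That is less far down than the median of all genes, -0.68, so the direction of Rpl10 depends on the scale. The 3 members that were not called were Rps4l, Rps27l and Rpl7l1, with log2 differences of -0.60, -0.02 and 0.05.

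Between lung and colon the members were split, with 11 higher and 27 lower in lung vehicle libraries (limma adjusted p under 0.05) and a median log2 difference of -0.09. Of all genes tested 51.0% were higher and 24.7% lower, with a median of 0.35. After median ratio scaling, which brings the median of all genes close to 0, 0 members were higher and 71 lower (median -0.51), so the 11 higher calls depend on the scale. Without colon vehicle library 1 the calls were 18 higher and 20 lower, and without lung vehicle library 3 they were 10 and 21. Rps26 was again lowest, at 515, 468 and 449 TPM in lung, 1.80-fold below colon (log2 -0.84, SE 0.090, limma adjusted p = 2.17e-05). Next were Rplp0, the stalk's anchor, with 1269, 1003 and 1112 TPM in colon and 732, 674 and 712 in lung (limma adjusted p = 0.000121), and Rps2, with 1112, 1022 and 1178 and 732, 705 and 709 (limma adjusted p = 1.83e-05). Neither pair of groups overlapped. Rpl32 and Rpl28 followed, at log2 -0.61 and -0.59. Rps19, the small subunit gene most often mutated in human Diamond-Blackfan anaemia, was highest in lung relative to colon, with 754, 616 and 631 TPM in colon and 1004, 887 and 855 in lung (log2 0.46, limma adjusted p = 0.00213). Rps21, Rpl10, Rps15 and Rpl9 were higher by log2 0.29 to 0.40.

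Between lung and liver, 79 members were higher in lung and 2 lower (limma adjusted p under 0.05), with a median log2 difference of 1.16, while 74.5% of all genes tested were higher and 13.5% lower with a median of 1.10. After median ratio scaling, which brings the median of all genes to 0.04, the family's direction turned, with 12 members higher, 45 lower and a median of -0.21. Rps27 differed most, with 2266, 2120.1 and 2218 TPM in lung and 603, 561 and 582 in liver (log2 1.92, SE 0.076, limma adjusted p = 1.91e-08). Rps19 (1.86), Rps14 (1.79), Rpl21 (1.67) and Rps21 (1.67) came next on the log2 scale. The 2 members lower in lung were Rps27l, with 196, 184 and 201 TPM in lung and 257, 271 and 264 in liver (limma adjusted p = 0.000182), and Rps2, with a liver level of 832, 794 and 799 (limma adjusted p = 0.0284). Without lung vehicle library 3, which held the most hepatocyte marker RNA, 1 member was lower in lung.

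Expressing each member as a percent of the summed TPM of all 82 removes the scale of a library and shows the make-up of the pool. Most shares were alike: the ratio of mean vehicle shares lay between 0.8 and 1.25 for 66 members between liver and colon, 63 between lung and colon and 52 between lung and liver. Rpl10 was 1.50% to 1.79% of the pool over the 6 colon libraries, 2.10% to 2.35% in lung and 3.04% to 3.30% in liver, with no overlap between tissues. Rps2 was 0.950% to 1.13% in lung, 1.38% to 1.60% in colon and 2.46% to 2.74% in liver, again with no overlap. Its liver share was thus 1.72 times that in colon, and its lung share 0.397 times that in liver.

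Rps27 moved the other way, with 1.62% to 1.99% of the pool in liver, 2.19% to 2.51% in colon and 2.86% to 3.18% in lung. Rps26 was 1.13% to 1.24% in colon, above both lung (0.644% to 0.706%) and liver (0.760% to 0.875%). Rps19 had 1.45 times its colon share in lung, and Rps14 0.726 times its colon share in liver. The extremes between liver and colon were Rpl7l1, whose share was 2.44 times as large in liver, and Rps26, at 0.713 times. Under RECTAS the ratio to vehicle lay between 0.8 and 1.25 for all 82 members in each tissue, from 0.870 (liver) to 1.23 (liver) at most.

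**Figure D3:**
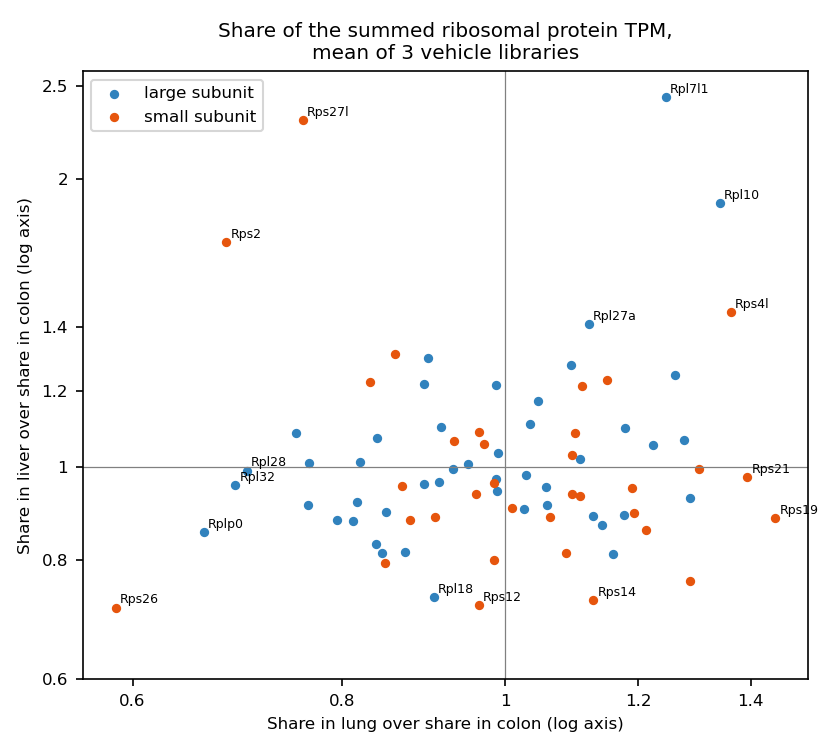
Ratio of the mean vehicle share in liver to that in colon (y, log axis) against the ratio in lung to colon (x, log axis) for 81 of the 82 members, with large and small subunit genes in different colours. Most members cluster near 1 on both axes, while Rpl7l1 (2.44), Rps27l (2.30), Rpl10 (1.89) and Rps2 (1.72) stand high on the liver axis and Rps26 (0.586) stands lowest on the lung axis.

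Paralogs were compared as a percent of the TPM of a pair (paralog over paralog plus parent), with an exact two-sided permutation test of tissues within treatments (400 relabelings, smallest possible p 0.005) adjusted by Benjamini-Hochberg over 30 tests of 10 pairs. Rps27 and Rps27l encode near-identical zinc finger proteins of the small subunit, and Rps27l is a target of p53. Rps27l formed 12.7, 14.2 and 12.1% of the pair in colon vehicle libraries, 7.95, 7.98 and 8.30% in lung and 29.9, 32.6 and 31.2% in liver. The tissues did not overlap, and each of the 3 differences had an exact permutation adjusted p of 0.0136. In TPM, most of the difference against liver lay in the parent, while both genes differed between lung and colon. Vehicle means of Rps27 were 1805 TPM in colon, 2201 in lung and 582 in liver, and those of Rps27l 269, 193 and 264. Which gene of a pair differs between tissues depends on the scale of the libraries, while the share of the pair does not. With RECTAS the Rps27l share was 8.87, 8.94 and 8.72% in lung and 34.1, 33.2 and 33.2% in liver, in each case above every vehicle library of the tissue. In colon, 13.5, 11.8 and 14.2% overlapped the vehicle values. An exact test within 1 tissue cannot give a p below 0.1 here either, and no other test of this shift was run. For scale, the TPM of vehicle and RECTAS libraries did not overlap for 19.3% of all genes in lung and 18.7% in liver.

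Rpl36a and Rpl36al encode forms of a large subunit protein that differ at very few residues. Rpl36al made up 32.0, 33.1 and 33.1% of the pair in colon vehicle libraries, 34.9, 35.7 and 38.0% in lung and 55.6, 56.9 and 58.1% in liver. Liver was above both other tissues in all libraries (exact permutation adjusted p = 0.0136 for each), whereas lung and colon were not separated after adjustment (0.0900). In TPM, Rpl36al itself was 384, 348 and 338 in colon, 318, 297 and 349 in lung and 312, 384 and 395 in liver, ranges that overlap. Rpl36a was 817, 704 and 684 in colon, 594, 534 and 569 in lung and 249, 290.3 and 285 in liver, and its liver libraries lay below all others.

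Rpl22 binds RNA on the large subunit, and its paralog Rpl22l1 is held down by Rpl22 in mouse cells. Rpl22l1 formed 24.0, 22.2 and 22.5% of the pair in colon vehicle libraries, 20.2, 18.3 and 18.8% in lung and 20.3, 22.0 and 23.0% in liver. Over all libraries the lung share minus the colon share was -3.33 points (exact permutation adjusted p = 0.0346) and minus the liver share -3.23 points (0.0136). Lung and colon overlapped, since colon RECTAS library 3 held 19.0%, and liver RECTAS library 2 was highest at 27.5%. Liver and colon differed by less than their spread.

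Rpl7l1 is a homolog of Rpl7 that acts in assembly of the large subunit rather than in the mature ribosome. Its TPM was 3.24, 3.79 and 3.46% of the pair in colon vehicle libraries, 4.04, 4.43 and 4.65% in lung and 8.03, 7.64 and 9.33% in liver (exact permutation adjusted p = 0.0136 for each pair of tissues). With RECTAS its share was 4.82, 5.41 and 5.09% in lung and 10.4, 10.6 and 9.75% in liver. In each case this lay above every vehicle library of the tissue. In colon, 4.26, 3.65 and 3.82% overlapped the vehicle values, and this shift was not tested. In TPM, the difference against liver lay mostly in Rpl7, with 1026, 861 and 905 TPM in colon, 914, 829 and 868 in lung and 371, 407 and 377 in liver. Here too, which gene of the pair differs depends on the scale of the libraries. Between lung and colon, vehicle means of Rpl7 were 871 and 931 TPM, and those of Rpl7l1 differed more, at 39.8 and 33.6.

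Paralogs known from single tissues were near absent. Rpl10l and Rpl39l, used in the testis, were listed at 0 in all 18 libraries and at 0 to 0.480 TPM. Rpl3l, used in heart and skeletal muscle, was 0 to 0.220 TPM in colon and 0 to 0.0900 in liver. In lung it was 0.340, 0.310 and 0.660 TPM with vehicle and 0.450, 1.02 and 0.380 with RECTAS, above every colon and liver library (share of the pair, exact permutation adjusted p = 0.0136 against each). The 8 striated muscle markers summed to 327, 189 and 415 TPM in the same lung vehicle libraries and 361, 814 and 106 with RECTAS, and to 32.8 to 45.2 in colon and 0.490 to 1.53 in liver. Of these 8, the heart genes Actc1, Myh6, Tnnt2 and Tnni3 were present in lung, while Acta1 and Myl2 were at or near 0. Ttn had means of 0.533 TPM with vehicle and 0.707 with RECTAS in lung. Ckm was lower in lung, at 7.21 and 10.1 TPM, than in colon, at 27.4 and 26.9, so the sums rest on different genes in the 2 tissues. The part of striated muscle cells in the Rpl3l signal was not tested. The pseudogene Rps4l was 17.6, 39.0 and 35.7 TPM in colon vehicle libraries, and its share of the pair with Rps4x was 1.71 points higher in liver than in colon (exact permutation adjusted p = 0.0346), with overlapping libraries. The shares of Rps3a2 and Rps3a3 beside Rps3a1 gave no adjusted p under 0.05.

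**Figure D4:**
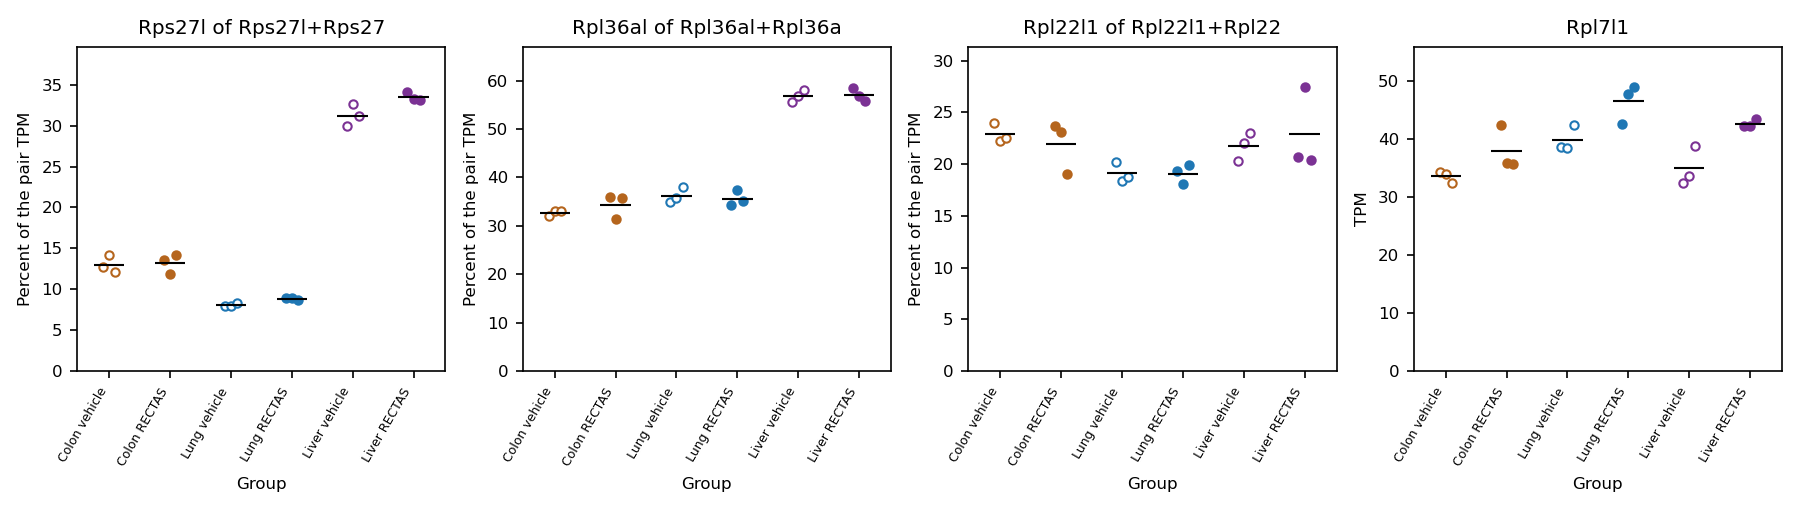
Percent of a pair's TPM from Rps27l, Rpl36al and Rpl22l1, and TPM of Rpl7l1 (last panel), with open symbols for vehicle, filled symbols for RECTAS, a point per library and lines at the means. The Rps27l and Rpl36al shares are highest in liver in every library, and all 3 RECTAS libraries exceed all 3 vehicle libraries for Rpl7l1 in each tissue.

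RECTAS was compared with vehicle within each tissue to ask whether treatment moved these genes. In colon, lung and liver 0 of the 82 members passed limma's test with Benjamini-Hochberg adjustment over all genes, where 0%, 0.00637% and 0.0167% of all genes passed. At an unadjusted p under 0.05 there were 0 members in colon (1.62% of all genes), 2 in lung (12.6%) and 2 in liver (11.6%). In lung both were higher, Rpl7l1 and Rpl14, and in liver Rpl7l1 was higher and Rps27 lower. Across the members the log2 differences ran from -0.18 to 0.28 in liver, -0.15 to 0.22 in lung and -0.07 to 0.17 in colon. The 95% intervals lay within ±0.5 on the log2 scale (1.41-fold) for 81, 80 and 80 members, so larger shifts lie outside the interval for nearly every member in these libraries.

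The members' median log2 difference was 0.03 in colon (59 members higher, 23 lower), -0.02 in lung (23 higher, 59 lower) and -0.01 in liver (35 higher, 47 lower). Over all genes tested the medians were 0.02, 0.06 and -0.04, with 57.2%, 65.4% and 40.0% of genes higher. In colon and liver these directions rest on scale, and in each tissue they rest on single libraries. The liver median was 0.04 (66 higher) after median ratio scaling. The colon median turned just below 0 after rescaling without mitochondrial and the 20 highest genes, and it was 0.08 (78 higher) without colon vehicle library 1. In lung the direction held after both rescalings. The lung median was -0.085 after median ratio scaling and -0.086 after rescaling without those genes, each with 5 members higher. The medians of all genes were then 0.0020 and -0.00075. Leaving out 1 library at a time gave lung medians of -0.079 to 0.0063, and -0.038 without lung vehicle library 3. The medians ran from -0.029 to 0.080 in colon and from -0.049 to 0.013 in liver, so the sign could turn in each tissue. Groups that did not overlap numbered 2 members in colon (2.44%, against 5.44% of all genes), 9 in lung (11.0%, against 19.3%) and 5 in liver (6.10%, against 18.7%).

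**Figure D5:**
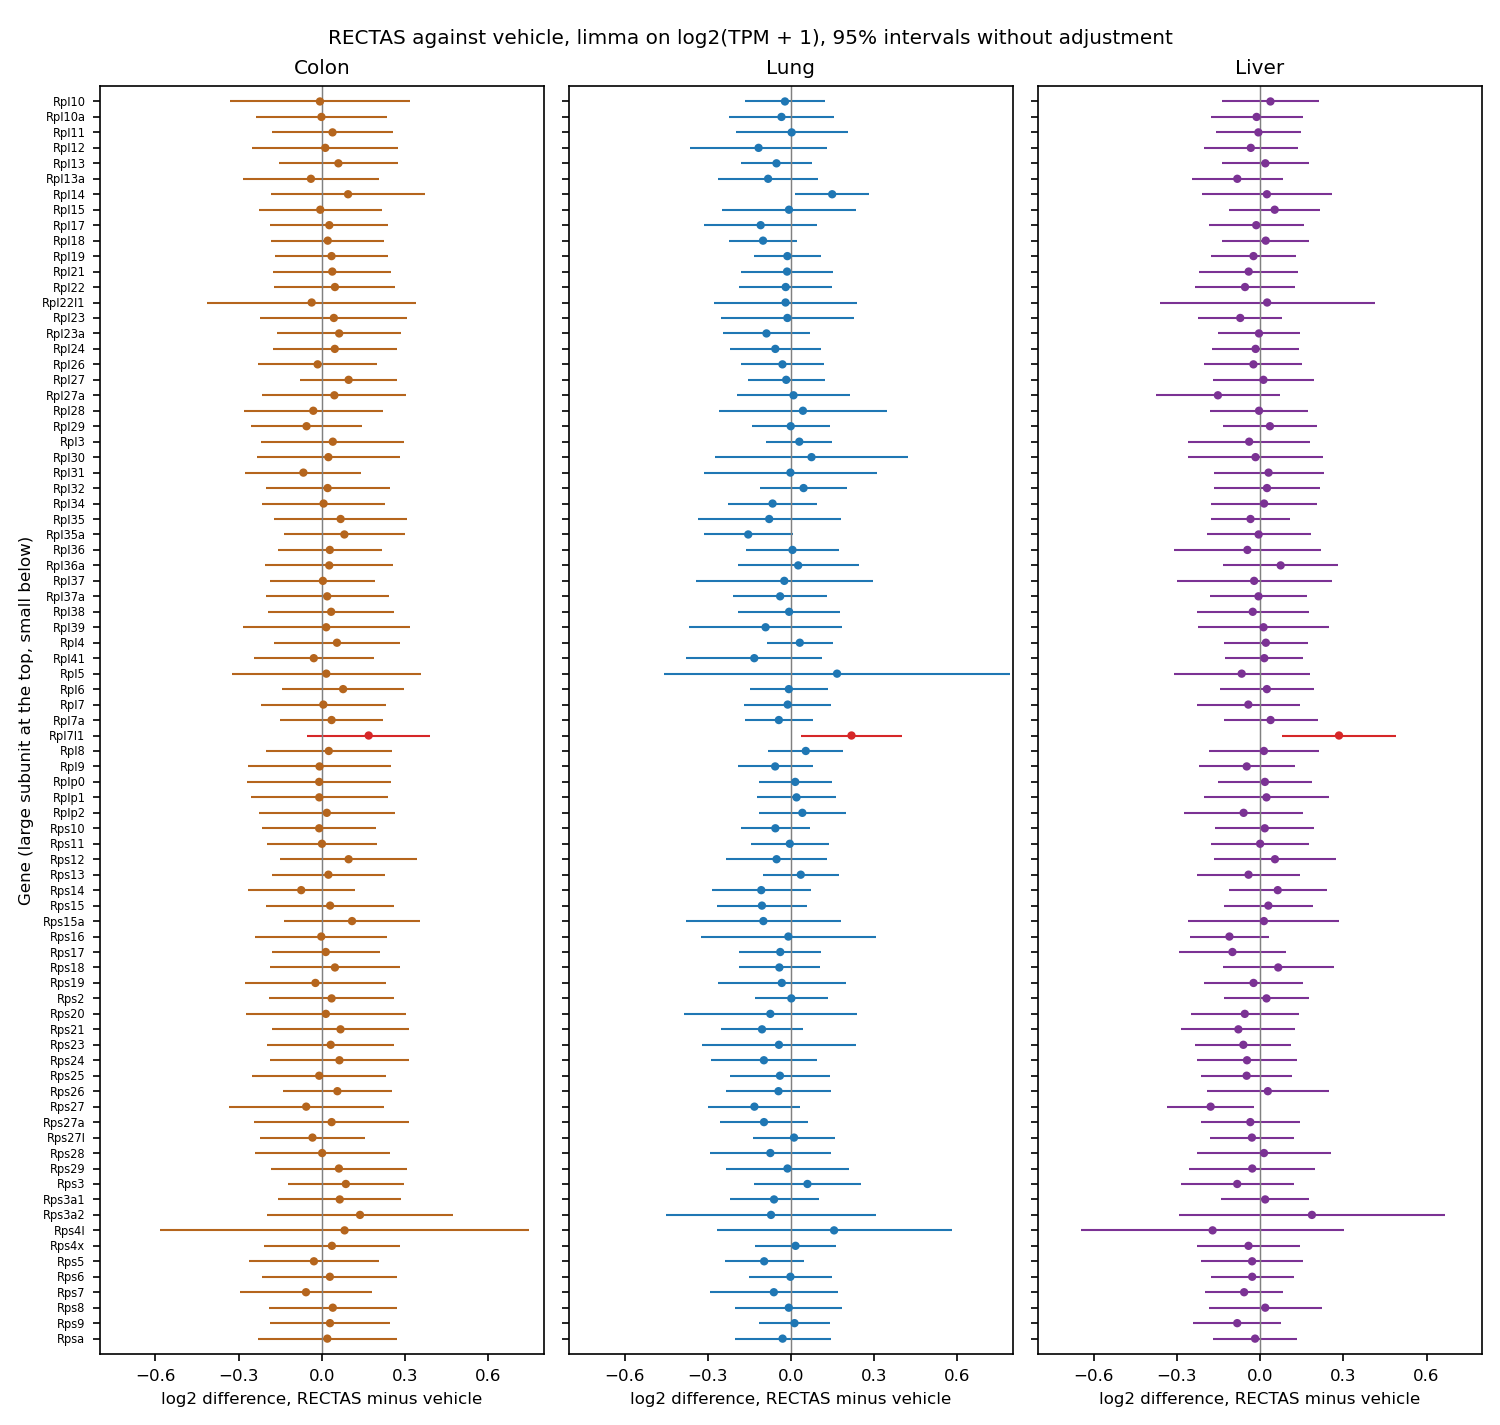
Log2 difference of RECTAS against vehicle for 81 of the 82 members (x axis) with its 95% interval from limma, in colon, lung and liver, large subunit genes at the top and small subunit genes below. Points scatter around 0 in all tissues, 0 pass the adjusted threshold, and Rpl7l1 (red) lies furthest right in each tissue.

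Rpl7l1 (chr17:46773907-46782672, minus strand, GRCm38) was the member furthest to the higher side in all 3 tissues. In colon it had 34.3, 33.9 and 32.4 TPM with vehicle and 42.4, 35.8 and 35.7 with RECTAS. In lung it had 38.5, 38.4 and 42.4 and 42.6, 47.7 and 49.0, and in liver 32.4, 33.7 and 38.8 and 42.2, 42.2 and 43.5. All RECTAS libraries exceeded all vehicle libraries of their tissue, as they did for 22 of 10753 genes tested in all 3 tissues (0.205%) and for 1 of the 82 members. The log2 differences were 0.17 (-0.05 to 0.39, 95% interval) in colon, while lung had 0.22 (0.04 to 0.40) and liver 0.28 (0.08 to 0.49). Without lung vehicle library 3 the lung value was 0.26. With all libraries none of the 3 passed limma's adjusted threshold (adjusted p = 0.9999, 0.339 and 0.336). Averaged over tissues in a limma fit of all 18 libraries it was 0.22 (SE 0.048, unadjusted p = 0.000318, adjusted p = 0.0785), where 0.188% of all genes and 0 members passed. If the same animals gave all 3 tissues, the tissue effects would not be independent and the p-values of this average could be too small. Without liver vehicle library 3 the adjusted p of that average was 0.0409, and over all alternatives run it ranged from 0.0409 to 0.167.

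Rps27 had 603, 561 and 582 TPM in liver with vehicle and 504, 503 and 536 with RECTAS, with no overlap (log2 -0.18, SE 0.066, limma adjusted p = 0.397). In lung it had 2266, 2120.1 and 2218 and 1918, 1961 and 2153, where the groups overlapped. Its average over tissues was -0.12 (limma adjusted p = 0.370). Rpl14, in lung, had 393, 364 and 387 TPM with vehicle and 434, 409 and 424 with RECTAS, which did not overlap (log2 0.15, limma adjusted p = 0.362), while in colon and liver its groups overlapped.

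Among other members with the smallest unadjusted p, Rpl35a had 1038, 1040.5 and 1057 TPM in lung with vehicle and 879.5, 927 and 1015 with RECTAS (limma adjusted p = 0.412), and Rps16 in liver had 437, 444 and 458 and 418, 413 and 409 (limma adjusted p = 0.525). Neither pair of groups overlapped. In colon, Rps14 had 1249, 1149 and 1184 TPM with vehicle and 1129, 1142 and 1129 with RECTAS, also apart, with a log2 difference of -0.07 and an adjusted p of 0.9999 by limma. Differences between tissues in the RECTAS effect, tested as interactions, were called for 0 members in each of the 3 pairs of tissues (0.0285%, 0.0114% and 0.0228% of all genes, for liver against colon, lung against colon and lung against liver). The smallest unadjusted p among them, for Rpl35a in lung against colon, was 0.0354.

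Genes around the ribosome were counted for comparison. Of 51 ribosome biogenesis genes, 47 of 51 tested had a higher mean with RECTAS in colon, 42 of 51 in lung and 37 of 50 in liver, with median log2 differences of 0.11, 0.11 and 0.12, and 0 passed limma's adjusted threshold in any tissue. The corresponding shares of all genes were 57.2%, 65.4% and 40.0%. Nop16, a nucleolar protein of large subunit assembly, went from 14.9 ± 0.592 to 18.5 ± 0.720 TPM in colon (limma adjusted p = 0.9999) and from 16.5 ± 1.38 to 20.6 ± 1.49 TPM in liver (0.340). In lung, Ddx21, a nucleolar helicase, went from 17.6 ± 1.90 to 21.8 ± 0.772 TPM (limma adjusted p = 0.300), and Bop1, of the complex that matures the large subunit, from 14.3 ± 0.881 to 17.9 ± 1.59 TPM (0.304). A difference between this list and the members was not tested.

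Of 19 other genes whose mRNAs carry a TOP motif, such as translation factors, 13, 12 and 5 had a higher mean with RECTAS in colon, lung and liver, and 0 passed. Eif4b went from 106 ± 2.36 to 90.1 ± 4.29 TPM in liver and Nap1l1 from 157 ± 1.63 to 179 ± 12.3 TPM in lung (limma adjusted p = 0.333 and 0.337). Of 77 mitochondrial ribosomal protein genes, whose products serve the separate ribosome of mitochondria, 58, 29 and 33 had a higher mean and 0 passed. Among 33 genes of the mTORC1 pathway, 20 of 32 tested had a higher mean with RECTAS in colon, 27 of 33 in lung and 18 of 30 in liver, where 57.2%, 65.4% and 40.0% of all genes did. The 1 that passed was Ddit4, an inhibitor of mTORC1, in liver, with 2.52, 4.43 and 3.67 TPM with vehicle and 22.2, 24.2 and 19.7 with RECTAS (log2 2.36, limma adjusted p = 0.0130). In lung Ddit4 had 16.3, 22.0 and 30.9 and 52.1, 63.6 and 42.1 TPM, apart but not called (limma adjusted p = 0.264), and in colon the groups overlapped. In the same liver libraries 0 ribosomal protein members passed, where 0.0167% of all genes did. So few calls say little about the members, and a link to Ddit4 was not tested.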

How the data were processed

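Gene-level TPM values of 18 libraries were used as the authors deposited them. HISAT2 2.2.0, RSEM 1.3.0 and the build GRCm38 appear in the submitters' processing notes with no role or order, and RNA was extracted with TRIzol and libraries were made with a TruSeq stranded kit for mRNA, as the labels' protocols say. Neither the annotation release nor filtering is stated there. TPM values of a library sum to a fixed total, so depth is unknown and no counting interval was given, and a rise in a few abundant genes lowers all others.

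Groups came from the labels. Members and gene lists were chosen with earlier results of these data known, so no test was made over a list and medians stand beside those of all genes. The limma tests (version 3.58.1) used log2(TPM + 1) of genes reaching 1 TPM in 3 or more fitted libraries, a mean-variance trend, two-sided p-values (R 4.3.3) and Benjamini-Hochberg adjustment over all genes tested. Fold changes on this scale understate those of low genes. RECTAS was fitted within each tissue (6 libraries), tissues in the 9 vehicle libraries, and interactions and the average effect in all 18. Paralog shares were tested by exact permutation. The limma procedure was also run on simulated data with independent noise for each gene. The changes put in were larger than any member's difference under RECTAS, so that run does not bear on shifts of this size. GENCODE M21 matched 55141 gene identifiers and gave coordinates and gene types. Python 3.11.15 drew figures and searched promoters.

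Named members were those called under RECTAS, the 3 per direction and tissue with the smallest p, both genes of each paralog pair, the 5 highest per tissue, the 5 per direction differing most between tissues, and the 3 on either side of the threshold. A member that the rule names is not reported here and is left out of the plots of single genes, but it entered all counts and sums. For other lists, up to 3 genes per tissue with the smallest p could be named. The alternatives changed the pseudocount (0.1 or 5 TPM), the filter (none, or 5 TPM), the scale (median ratio, or without mitochondrial and the 20 highest genes) and the fit (all 18 libraries at once, a block for replicate number, or each library left out).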

Additional observations from a re-analysis of the deposited data

How the results depend on the processing

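Depth is unknown for TPM, and 3 libraries a group limit what could be called. Under pseudocounts of 0.1 and 5 TPM, without a filter, with a filter of 5 TPM, in 1 fit of all 18 libraries and after both rescalings, 0 members were called for RECTAS in each tissue. The count for the average effect rose from 0 to 1 (Rpl7l1) without liver vehicle library 3. Median ratio scaling moved the members' median to -0.085 in lung under RECTAS, -0.32 for liver against colon, -0.51 for lung against colon (71 members called, against 38) and -0.21 for lung against liver. Rescaling without mitochondrial and the 20 highest genes moved the lung RECTAS median to -0.086. Leaving out 1 library at a time gave medians of 1.10 to 1.17 for lung against liver. The cause was not tested.

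With the replicate number as a block the calls were 0 for RECTAS in each tissue, 80 for liver against colon, 34 for lung against colon and 81 for lung against liver, against 79, 38 and 81 without it. Deviations of same-numbered libraries were not correlated above 0.1 in every pair of any tissue (lowest and highest r -0.03 and 0.06 in liver, 0.07 and 0.22 in lung, and -0.45 and 0.40 in colon), and the labels do not state what the numbers mean, so they were not taken as pairs.

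Paralog shares, in points and leaving out 1 library at a time, gave -1.13 to 0.312 for Rpl22l1 in liver minus colon, where the sign turned in 6 of 12 cases. For Rps3a2 they gave -0.0853 to 0.0724 (liver minus colon), -0.0767 to 0.00484 (lung minus colon) and -0.0980 to 0.0596 (lung minus liver). Those of Rps3a3 in liver minus colon were -0.0356 to -0.0236, of Rpl36al in lung minus colon 1.92 to 2.83, of Rpl39l in lung minus liver 0.0138 to 0.0395 and of Rps4l in lung minus colon 0.786 to 1.32. These 4 crossed an unadjusted p of 0.05 in some cases. In vehicle libraries alone, where the smallest p is 0.1, Rpl3l was -0.00657 and Rpl39l -0.0211 (liver minus colon), Rps27l -23.2, Rpl7l1 -3.96 and Rps3a3 0.00282 (lung minus liver), and Rpl7l1 4.84 (liver minus colon).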
